A study of Mus musculus with 26 samples.

Results

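Rhox5, Rhox6 and Rhox9 are 3 members of the reproductive homeobox cluster on the mouse X chromosome. They were taken as every probe annotated to these gene symbols on an Illumina MouseRef-8 bead array, which gave 1 probe per gene, 3 of the 16590 named genes on the array. The array also carried 6 probes to 5 other Rhox genes, while the mouse annotation lists 42 Rhox genes including 8 pseudogenes, so most of the cluster was not measured. The study profiled 13 mouse lines of the OG2 strain, which carries a green fluorescent reporter under control of the Pou5f1 gene, with 2 arrays per line. It set pluripotent lines made by different reprogramming routes beside each other, their cells of origin and embryonic stem cells.

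The 4 iPSC[GSC] clones are induced pluripotent lines from germline stem cells (GSC), the self-renewing spermatogonial cells of the testis. The 4 gPSC clones are germline-derived pluripotent lines, known as lines that convert in culture. Each set has clones 1 and 2 from neonatal GSC (day 10 in the labels) and clones 1 and 2 from adult GSC (day 40). A further induced line, iPSC[MEF], came from OG2 mouse embryonic fibroblasts and is labelled Tet-4F. The lines set against these were GSC[neonatal], GSC[adult], the OG2 embryonic stem cell (ESC) line and mouse embryonic fibroblasts (MEF). Each clone is a single clone, and each of the other groups is a single line. In the labels both arrays of a line are biological replicates, with nothing on whether they were separate cultures, so p-values between lines measure only the spread between arrays and do not extend to other clones.

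Rhox proteins are homeodomain transcription factors expressed in testis, ovary, placenta and stem cells. The cluster is silenced by DNA methylation in the embryo proper and stays active in extraembryonic tissue, and it is derepressed when DNA methyltransferases are lost, which makes its genes known reporters of methylation state. Rhox5, the founding member, once called Pem, acts in Sertoli cells of the testis and is also known for high expression in embryonic stem cells. Rhox6 and Rhox9, once called Psx1 and Psx2, are closely related placental homeobox genes that are also expressed in fetal germ cells. No DNA methylation was measured here.

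Rhox5 has a proximal and a distal promoter, and its distal promoter is a textbook case of silencing by methylation. In the rat, that promoter is known to depend on Ets and Sp1 family factors. The 250 bases before the RefSeq start of Rhox5 (GRCm38.p6, chrX:37754358-37754607, plus strand) are shown because methylation of a Rhox5 promoter is the gene's best known control, although the table does not say which of its promoters this is. Capitals mark each CG dinucleotide and the letters GGCGGG (GC box) and TTCCGG (the reverse complement of CCGGAA, the Ets core), and each of these 2 motifs itself holds a CG.
Rhox5: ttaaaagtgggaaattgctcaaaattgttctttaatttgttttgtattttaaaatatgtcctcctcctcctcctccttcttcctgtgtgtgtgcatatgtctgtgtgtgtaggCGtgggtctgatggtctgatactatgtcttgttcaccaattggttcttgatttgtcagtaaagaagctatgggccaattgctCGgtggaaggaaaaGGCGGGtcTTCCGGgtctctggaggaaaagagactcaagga
The window holds 4 CG dinucleotides, and 62.2% of 32851 mouse promoter windows of the same length hold at least as many, so by this count it is not rich in them. It holds 1 GGCGGG, beginning 41 bases before the start, and 32.5% of windows hold that motif on either strand. It holds 1 CCGGAA, beginning 33 bases before the start, and 12% of windows hold it.

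The labelled cell types carried their defining markers. All 5 pluripotent markers were detected on both arrays of each of the 10 pluripotent lines, all 9 GSC markers that were tested were detected on both arrays of each GSC line, and MEF had none of the pluripotent markers on both arrays. The number of detected probes per array was 9984 to 12081 of 25697. The arrays fell into 3 sets by background intensity, and both arrays of each iPSC[GSC] line lay in the lowest set (79.39 to 83.84) while the gPSC, iPSC[MEF], GSC and ESC lines had 1 array in that set and 1 at 87.29 to 89.37. MEF stood apart at 105.3 to 113.4, so that MEF and this set cannot be told apart. The 95th percentile of intensity over background was also 26.24 and 24.88 on the MEF arrays, against 8.86 to 11.25 on the others. Results were therefore also computed by fitting the set as a block and by using the low set alone.

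Rhox5 was high in every pluripotent line and at or near background in the cells they came from. Levels are given as normalised log2 intensity, with an offset of 16 added to the corrected signal so that no level falls below 4, and a probe counts as detected on an array at a detection p under 0.01. Rhox5 was at 12.14 and 12.13 in iPSC[GSCneonatal]#1, 10.67 and 10.70 in iPSC[GSCneonatal]#2, 12 and 12.01 in iPSC[GSCadult]#1, and 12.10 and 12.04 in iPSC[GSCadult]#2. The gPSC clones had Rhox5 at 12.11 and 12.02 (gPSC[GSCneonatal]#1), 10.63 and 10.62 (gPSC[GSCneonatal]#2), 10.98 and 10.96 (gPSC[GSCadult]#1), and 9.47 and 9.53 (gPSC[GSCadult]#2). Rhox5 was at 4.54 and 4.81 in GSC[neonatal] and at 4.96 and 4.98 in GSC[adult], with 1 of these 4 GSC arrays detected. The clones and the GSC arrays did not overlap, and the lowest clone, gPSC[GSCadult]#2, stood 4.53 log2 units above its GSC line.

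Against the GSC line of the same origin, called the parent here although the labels do not say that it is the very culture of origin, Rhox5 was called higher in 8 of 8 clones, with differences of 4.53 to 7.47. A call is a Benjamini-Hochberg adjusted p under 0.05 in limma over the 9840 genes tested. Of all genes, 34.4% were called higher in iPSC[GSCneonatal]#1, 34.4% in iPSC[GSCneonatal]#2, 34.1% in iPSC[GSCadult]#1, 33.9% in iPSC[GSCadult]#2, 34.1% in gPSC[GSCneonatal]#1, 34.3% in gPSC[GSCneonatal]#2, 33.3% in gPSC[GSCadult]#1 and 33.6% in gPSC[GSCadult]#2, so a call alone says little. By size of difference Rhox5 ranked between 3 and 65 of 9840 genes in the 8 clones. As GSC[neonatal] was not detected on either array, the neonatal clones have lower bounds, at least 154-fold in iPSC[GSCneonatal]#1, at least 56.1-fold in iPSC[GSCneonatal]#2, at least 146-fold in gPSC[GSCneonatal]#1 and at least 53.9-fold in gPSC[GSCneonatal]#2. The adult clones stood 131-fold (iPSC[GSCadult]#1), 137-fold (iPSC[GSCadult]#2), 63.9-fold (gPSC[GSCadult]#1) and 23.1-fold (gPSC[GSCadult]#2) above GSC[adult], where 1 of 2 arrays was detected. These folds and bounds hold only for the background-corrected levels used here. Rhox5 in iPSC[GSCneonatal]#1 and GSC[neonatal] was at 12.03 and 6.61 without background correction, and at 11.89 and 2.84 in the authors' matrix.

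With lines rather than arrays as the unit (a random line effect in limma), Rhox5 was higher in iPSC[GSC] than in GSC by 6.90 ± 0.36 (SE; limma adjusted p = 2.6e-13; 22.4% of genes called higher) and in gPSC than in GSC by 5.97 ± 0.36 (limma adjusted p = 3.66e-12; 21.2% of genes called higher). It was lower in GSC than in ESC by -7.23 ± 0.51 (limma adjusted p = 2.05e-10; 16.2% called lower), the largest difference of all 9840 genes in that comparison. The fibroblast route gave the same picture. Rhox5 was at 10.80 and 10.80 in iPSC[MEF] and at 4.58 and 4.88 in MEF, where neither array was detected, at least 44.3-fold higher in iPSC[MEF] (limma adjusted p = 5.05e-08 with the line as a block; 16.8% called higher). GSC and MEF did not differ in Rhox5 beyond their spread (0.09 ± 0.51, limma adjusted p = 0.924; 25.4% called higher and 20.6% lower), both being near background.

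Among the pluripotent lines Rhox5 fell into 3 steps. The upper step held 5 lines between 12 and 12.14, namely iPSC[GSCneonatal]#1, iPSC[GSCadult]#1, iPSC[GSCadult]#2, gPSC[GSCneonatal]#1 and ESC, where Rhox5 was at 12.03 and 12.07. Of these, the arrays of iPSC[GSCadult]#2, gPSC[GSCneonatal]#1 and ESC overlapped in turn. A middle step held gPSC[GSCadult]#1, iPSC[MEF], iPSC[GSCneonatal]#2 and gPSC[GSCneonatal]#2, between 10.63 and 10.97, and gPSC[GSCadult]#2 stood alone at 9.50. The upper and the middle step each held clones of both routes and both origins.

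Set against ESC, Rhox5 was called lower in 5 of 9 reprogrammed lines and higher in none (13.6% to 31.1% of genes were called lower in these 9 comparisons, and 12.5% to 25.5% higher). By line, the shares of genes called lower than in ESC were 26.1% in iPSC[GSCneonatal]#1, 13.6% in iPSC[GSCneonatal]#2, 22.8% in iPSC[GSCadult]#1, 17.4% in iPSC[GSCadult]#2, 22.8% in gPSC[GSCneonatal]#1, 24.2% in gPSC[GSCneonatal]#2, 17.6% in gPSC[GSCadult]#1, 31.1% in gPSC[GSCadult]#2 and 22.9% in iPSC[MEF]. It was 5.86-fold lower in gPSC[GSCadult]#2 (log2 difference -2.55 ± 0.09, limma adjusted p = 1.47e-14), 2.69-fold in gPSC[GSCneonatal]#2, 2.58-fold in iPSC[GSCneonatal]#2, 2.38-fold in iPSC[MEF] and 2.12-fold in gPSC[GSCadult]#1. The other 4 clones differed from ESC by -0.05 to 0.09 with adjusted p of 0.464 to 0.919. The sign of this small difference turned under several settings in iPSC[GSCadult]#2 and gPSC[GSCneonatal]#1. With clones as the replicates neither route differed from ESC, as Rhox5 was -0.33 ± 0.47 in iPSC[GSC] (limma adjusted p = 1) and -1.26 ± 0.47 in gPSC (adjusted p = 0.405), the gPSC value being called without gPSC[GSCadult]#1 (-1.63, limma adjusted p = 0.0351).

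**Figure D1:**
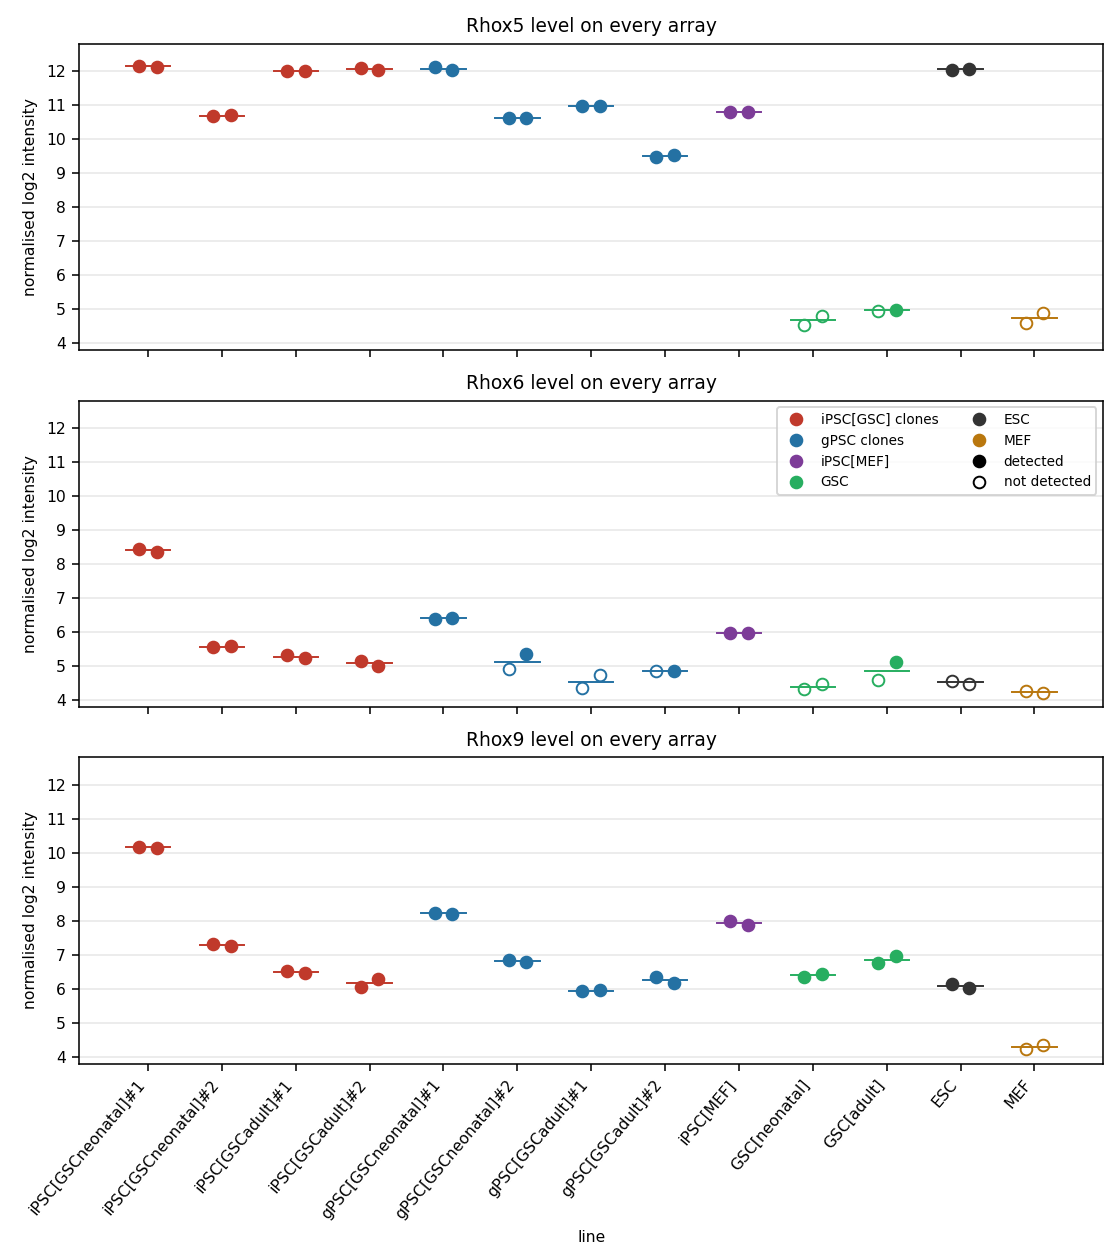
Normalised log2 intensity (vertical axis) of Rhox5, Rhox6 and Rhox9 on both arrays of each of the 13 lines (horizontal axis). Each point is an array, filled where the probe was detected, and each short line is the mean of a line. Rhox5 lies between 9.47 and 12.14 on all pluripotent arrays and under 5 in GSC and MEF, while Rhox6 and Rhox9 stand out in iPSC[GSCneonatal]#1 at 8.39 and 10.16.

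Fibroblast markers also differed between the pluripotent lines. The summed linear level of the 6 fibroblast markers tested, among them the collagens Col1a1 and Col3a1 and the proteoglycans Dcn and Lum, was 7825 in gPSC[GSCadult]#2, which had the lowest Rhox5, 2368 in gPSC[GSCneonatal]#2 and 2027 in iPSC[MEF]. It was 197.1 in iPSC[GSCneonatal]#1, which had the highest Rhox5, and 424.9 in gPSC[GSCneonatal]#1, against 1205 in ESC and 10650 in MEF. The remaining clones did not line up with the Rhox5 steps. The sum was 935.4 in iPSC[GSCadult]#1 and 528.8 in iPSC[GSCadult]#2, of the upper step. In the middle step it was 1055 in iPSC[GSCneonatal]#2 and 842.1 in gPSC[GSCadult]#1. All 6 markers were called higher in gPSC[GSCadult]#2 than in ESC (24.6% of genes called higher) and all 6 were called lower in iPSC[GSCneonatal]#1 (26.1% called lower) and in gPSC[GSCneonatal]#1 (22.8% called lower). Of the 6, 2 were still detected on both arrays of iPSC[GSCneonatal]#1 and 6 in gPSC[GSCadult]#2. In MEF 4 of the 6 were called higher than in ESC and 2 lower (34% and 40.8% of all genes). The 2 were Lum, at 5.21 in MEF and 7.31 in ESC, and Dcn, at 7.30 in MEF and 8.37 in ESC. Normalised levels in MEF can run against intensity. The methyltransferase gene Dnmt1 had a mean intensity of 1066 in MEF and 730.4 in ESC, but levels of 8.51 and 9.59. The part of this scaling in the lower Lum and Dcn was not tested. Lum was higher by 3.90 ± 0.12 in gPSC[GSCadult]#2 than in ESC (limma adjusted p = 1.94e-15) and Dcn by 3.31 ± 0.09 (adjusted p = 4.73e-16), while Thy1, which was higher in MEF than in ESC, was higher by 2.23 ± 0.12 in this clone (adjusted p = 3.13e-12). ESC itself had both the fourth highest Rhox5 of the lines and a marker sum above that of 6 of the 8 clones. In such bulk RNA, fewer cells expressing a gene and less RNA per cell cannot be told apart, and the part of cells carrying these markers in the Rhox5 steps was not tested.

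Rhox9 was higher in every clone of neonatal origin than in every clone of adult origin, with a single GSC line behind each origin. It was detected on all 20 arrays of pluripotent lines and all 4 GSC arrays. Rhox9 was at 10.16 and 10.15 in iPSC[GSCneonatal]#1, 7.32 and 7.26 in iPSC[GSCneonatal]#2, 8.24 and 8.19 in gPSC[GSCneonatal]#1, and 6.84 and 6.79 in gPSC[GSCneonatal]#2, against 6.35 and 6.43 in GSC[neonatal]. Every neonatal clone stood above both arrays of GSC[neonatal].

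In the adult series Rhox9 was at 6.53 and 6.46 in iPSC[GSCadult]#1, 6.04 and 6.28 in iPSC[GSCadult]#2, 5.92 and 5.95 in gPSC[GSCadult]#1, and 6.34 and 6.18 in gPSC[GSCadult]#2, against 6.75 and 6.95 in GSC[adult]. All adult clones thus lay below both arrays of GSC[adult]. Rhox9 was called higher than in the parent in 4 of 4 neonatal clones and lower in 4 of 4 adult clones (33.3% to 34.4% of genes called higher). The share of genes called lower than in the parent was 39.2% in iPSC[GSCneonatal]#1, 37.6% in iPSC[GSCneonatal]#2, 36.9% in iPSC[GSCadult]#1, 37.6% in iPSC[GSCadult]#2, 38.7% in gPSC[GSCneonatal]#1, 36.8% in gPSC[GSCneonatal]#2, 36% in gPSC[GSCadult]#1 and 39.5% in gPSC[GSCadult]#2. The neonatal clones were higher by 3.76 ± 0.09 (iPSC[GSCneonatal]#1, 13.6-fold, limma adjusted p = 5.54e-18), 1.82 ± 0.09 (gPSC[GSCneonatal]#1, 3.53-fold), 0.90 ± 0.09 (iPSC[GSCneonatal]#2) and 0.42 ± 0.09 (gPSC[GSCneonatal]#2). Rhox9 was lower by -0.36 to -0.91 in the adult clones, largest in gPSC[GSCadult]#1 (limma adjusted p = 3.08e-08).

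With each clone as 1 value, the change of Rhox9 from the parent line averaged 1.73 ± 1.48 in neonatal clones and -0.64 ± 0.23 in adult clones (SD, n = 4 each), a difference of 2.37. The 2 sets of clones did not overlap, and a two-sided exact permutation test over the 70 splits of the 8 clones gave p = 0.0286, the smallest it can give, or 0.0429 adjusted over the 3 Rhox genes by Benjamini-Hochberg. Across all genes the same difference was the largest positive one of 9840 for Rhox9, but limma called 0 genes in this comparison (0% in either direction) and gave Rhox9 an adjusted p of 1. Without iPSC[GSCneonatal]#2 the difference was 3.08 with a limma adjusted p of 0.031. Each set of 4 clones was set against the same 2 arrays of 1 GSC line, so origin and that GSC line cannot be told apart.

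Levels of Rhox9 themselves, with no parent subtracted, averaged 6.21 ± 0.23 over adult-derived clones and 8.12 ± 1.48 over neonatal-derived clones (SD, n = 4 each). The adult-derived clones lay between 5.94 and 6.49 and all neonatal-derived ones between 6.82 and 10.16, with a two-sided exact permutation p of 0.0286 and 0.171 after adjustment over 6 such tests. limma on the 8 clone means called no gene in this contrast (0% called; Rhox9 -1.91 ± 0.65, adjusted p = 0.751, ranked 13 of 9840 by size). The routes did not separate. Rhox9 was at 7.52 ± 1.82 in iPSC[GSC] clones and 6.81 ± 1.01 in gPSC clones (SD, n = 4 each; exact permutation p = 0.6), and limma called 0 of 9840 genes between the routes.

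Against ESC, where Rhox9 was at 6.13 and 6.02, it was called higher in 6 of 9 lines and lower in none. The shares of genes called higher than in ESC were 25.5% in iPSC[GSCneonatal]#1, 12.5% in iPSC[GSCneonatal]#2, 19.9% in iPSC[GSCadult]#1, 15.4% in iPSC[GSCadult]#2, 20.6% in gPSC[GSCneonatal]#1, 22.6% in gPSC[GSCneonatal]#2, 15.6% in gPSC[GSCadult]#1, 24.6% in gPSC[GSCadult]#2 and 21.3% in iPSC[MEF]. iPSC[GSCneonatal]#1 stood 16.9-fold above ESC (log2 difference 4.08 ± 0.09, limma adjusted p = 2.58e-17), the largest increase of all 9840 genes in that line. Next came gPSC[GSCneonatal]#1 at 4.41-fold, iPSC[MEF] at 3.65-fold (7.94 in iPSC[MEF] against 6.07 in ESC), iPSC[GSCneonatal]#2 at 2.32-fold, gPSC[GSCneonatal]#2 at 1.67-fold and iPSC[GSCadult]#1 at 1.34-fold. The other 3 adult clones lay within -0.14 to 0.19 of ESC (adjusted p of 0.0983 to 0.551). Over cell types no difference from ESC was called, with 1.45 ± 0.57 in iPSC[GSC] (limma adjusted p = 0.57; 0.285% of genes called higher) and 0.73 ± 0.57 in gPSC (adjusted p = 0.961; 0.173% called higher). Without iPSC[GSCneonatal]#2, the lines of iPSC[GSC] stood 2.17 above ESC (limma adjusted p = 0.00253).

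Rhox9 was detected in the germline stem cells and not in the fibroblasts. Rhox9 was at 6.62 in GSC and 4.30 in MEF, where neither array was detected, at least 2.44-fold higher in GSC (limma adjusted p = 0.00387; 25.4% of genes called higher). That call was lost without background correction (log2 difference 0.93, limma adjusted p = 0.126) and on replicate 2 or replicate 1 of every line alone (2.33 and 2.31, adjusted p = 0.137 and 0.147). GSC and ESC did not differ in Rhox9 beyond the spread of lines (0.55 ± 0.63, limma adjusted p = 0.566), nor did iPSC[GSC] and GSC (0.90 ± 0.44, adjusted p = 0.0996) or gPSC and GSC (0.19 ± 0.44, adjusted p = 0.773). The iPSC[GSC] value moved to 1.62 with an adjusted p of 8.06e-05 without iPSC[GSCneonatal]#2, and the gPSC value to -0.16 without gPSC[GSCneonatal]#1. In iPSC[MEF] Rhox9 was at 8 and 7.88, against 4.24 and 4.36 in MEF, at least 6.09-fold higher (limma adjusted p = 0.00044 with the line as a block), a call that was lost on replicate 2 or replicate 1 of every line alone (3.52 and 3.76, adjusted p = 0.1 and 0.0908). Rhox6 was at least 1.55-fold higher in iPSC[MEF] than in MEF in the fit of lines (limma adjusted p = 1.49e-09; 39.7% called higher) and was not called with the line as a block (1.73 ± 0.78, adjusted p = 0.0945).

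Line by line against ESC, Rhox9 was higher by 0.32 ± 0.09 in GSC[neonatal] (limma adjusted p = 0.00475; 37.7% of genes called higher and 33.9% lower) and by 0.78 ± 0.09 in GSC[adult] (adjusted p = 2.83e-07; 37.9% called higher and 34.3% lower). MEF had at least 1.67-fold less Rhox9 than ESC (limma adjusted p = 6.75e-13; 34% called higher and 40.8% lower). Both GSC lines thus had as much or more Rhox9 signal than ESC while their Rhox5 was at least 145-fold lower in GSC[neonatal] and 135-fold lower in GSC[adult].

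Rhox6 lay closer to background, and the 4 lines with the most Rhox6 were those with the most Rhox9, in the same order. Rhox6 was detected on both arrays of the 4 iPSC[GSC] clones, gPSC[GSCneonatal]#1 and iPSC[MEF], on 1 of 2 in gPSC[GSCneonatal]#2, gPSC[GSCadult]#2 and GSC[adult], and on none in gPSC[GSCadult]#1, GSC[neonatal], ESC and MEF. Rhox6 was at 8.43 and 8.36 in iPSC[GSCneonatal]#1, 6.38 and 6.42 in gPSC[GSCneonatal]#1, 5.96 and 5.97 in iPSC[MEF], and 5.55 and 5.58 in iPSC[GSCneonatal]#2. In the remaining clones it lay between 4.35 and 5.34, with GSC[neonatal] at 4.32 and 4.47, GSC[adult] at 4.59 and 5.13, ESC at 4.56 and 4.47 and MEF at 4.26 and 4.20. From iPSC[GSCadult]#1 down to gPSC[GSCadult]#2 the arrays of neighbouring lines in the order overlapped.

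Relative to the parent GSC line, Rhox6 was called higher in 5 of 8 clones and lower in none (33.3% to 34.4% of genes called higher in these comparisons). The 4 neonatal clones were higher by at least 11.5-fold (iPSC[GSCneonatal]#1, limma adjusted p = 3.07e-15), at least 2.88-fold (gPSC[GSCneonatal]#1), at least 1.62-fold (iPSC[GSCneonatal]#2) and at least 1.19-fold (gPSC[GSCneonatal]#2). The fifth call, 0.40 in iPSC[GSCadult]#1 (limma adjusted p = 0.0199), was lost under several settings. It became 0.36 without replicate 1 of that clone (limma adjusted p = 0.0967), 0.13 without replicate 1 of GSC[adult] (adjusted p = 0.453), 0.12 without background correction (adjusted p = 0.0606), 0.13 on the low-background arrays alone (adjusted p = 0.31) and 0.85 with the authors' matrix (adjusted p = 0.0611). The differences of the other adult clones were 0.22 (iPSC[GSCadult]#2), -0.32 (gPSC[GSCadult]#1) and -0.02 (gPSC[GSCadult]#2). Of these, iPSC[GSCadult]#2 was called higher without replicate 2 of GSC[adult] (0.49, limma adjusted p = 0.00776). gPSC[GSCadult]#1 was called lower without replicate 1 of GSC[adult] (-0.59, limma adjusted p = 0.00191) or without its own replicate 2 (-0.51, adjusted p = 0.0143), with the array set as a block (-0.32, adjusted p = 0.0253) and on the low-background arrays alone (-0.41, adjusted p = 0.0164).

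The change of Rhox6 from the parent averaged 1.98 ± 1.45 in neonatal clones and 0.07 ± 0.31 in adult clones (SD, n = 4 each), 1.91 apart with no overlap (exact permutation p = 0.0286, or 0.0429 adjusted over the 3 genes; limma adjusted p = 1). For Rhox5 the corresponding averages were 6.71 ± 0.84 and 6.16 ± 1.20, which overlapped (exact permutation p = 0.429). Rhox6 levels alone averaged 4.93 ± 0.31 over adult-derived and 6.37 ± 1.45 over neonatal-derived clones (SD, n = 4 each; exact permutation p = 0.0571, or 0.171 adjusted over 6 tests). These levels overlapped, with gPSC[GSCneonatal]#2 at 5.13 and iPSC[GSCadult]#1 at 5.26. The parent levels subtracted were 4.39 in GSC[neonatal] and 4.86 in GSC[adult], both near background. Each was shared by 4 clones, so permuting clones does not cover its spread. Over cell types Rhox6 was higher in iPSC[GSC] than in GSC by 1.45 ± 0.48 (limma adjusted p = 0.0146; 22.4% of genes called higher), a call that was lost without iPSC[GSCneonatal]#1 (0.74, adjusted p = 0.0921), on replicate 2 or replicate 1 alone (1.24 and 1.66, adjusted p = 0.217 and 0.142) and on the low-background arrays alone (1.28, adjusted p = 0.0825). It was not called in gPSC against GSC (0.60 ± 0.48, adjusted p = 0.325).

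Compared with ESC, Rhox6 was called higher in 7 of 9 lines (12.5% to 25.5% of genes called higher). As ESC was below detection these are bounds, at least 11-fold in iPSC[GSCneonatal]#1 (limma adjusted p = 4.74e-14), 2.76-fold in gPSC[GSCneonatal]#1, 2.05-fold in iPSC[MEF] and 1.55-fold in iPSC[GSCneonatal]#2, and between 1.1-fold and 1.26-fold in iPSC[GSCadult]#1, iPSC[GSCadult]#2 and gPSC[GSCneonatal]#2. With the array set as a block, or on the low-background arrays alone, gPSC[GSCadult]#2 was called too (0.32 and 0.37, limma adjusted p = 0.0319 and 0.0363), which makes 8 of 9 lines. The calls of iPSC[GSCadult]#2 and gPSC[GSCneonatal]#2 rested on single arrays. The first became 0.48 without its own replicate 1 (limma adjusted p = 0.0664) and 0.51 without replicate 2 of ESC (adjusted p = 0.0502), and the second 0.39 without its own replicate 2 (adjusted p = 0.0673). With lines as the replicates Rhox6 was at least 2.21-fold above ESC in iPSC[GSC] (1.56 ± 0.61 in the fit), which limma did not call (adjusted p = 0.57) unless iPSC[GSCneonatal]#2 was left out (2.26, adjusted p = 0.0092).

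**Figure D2:**
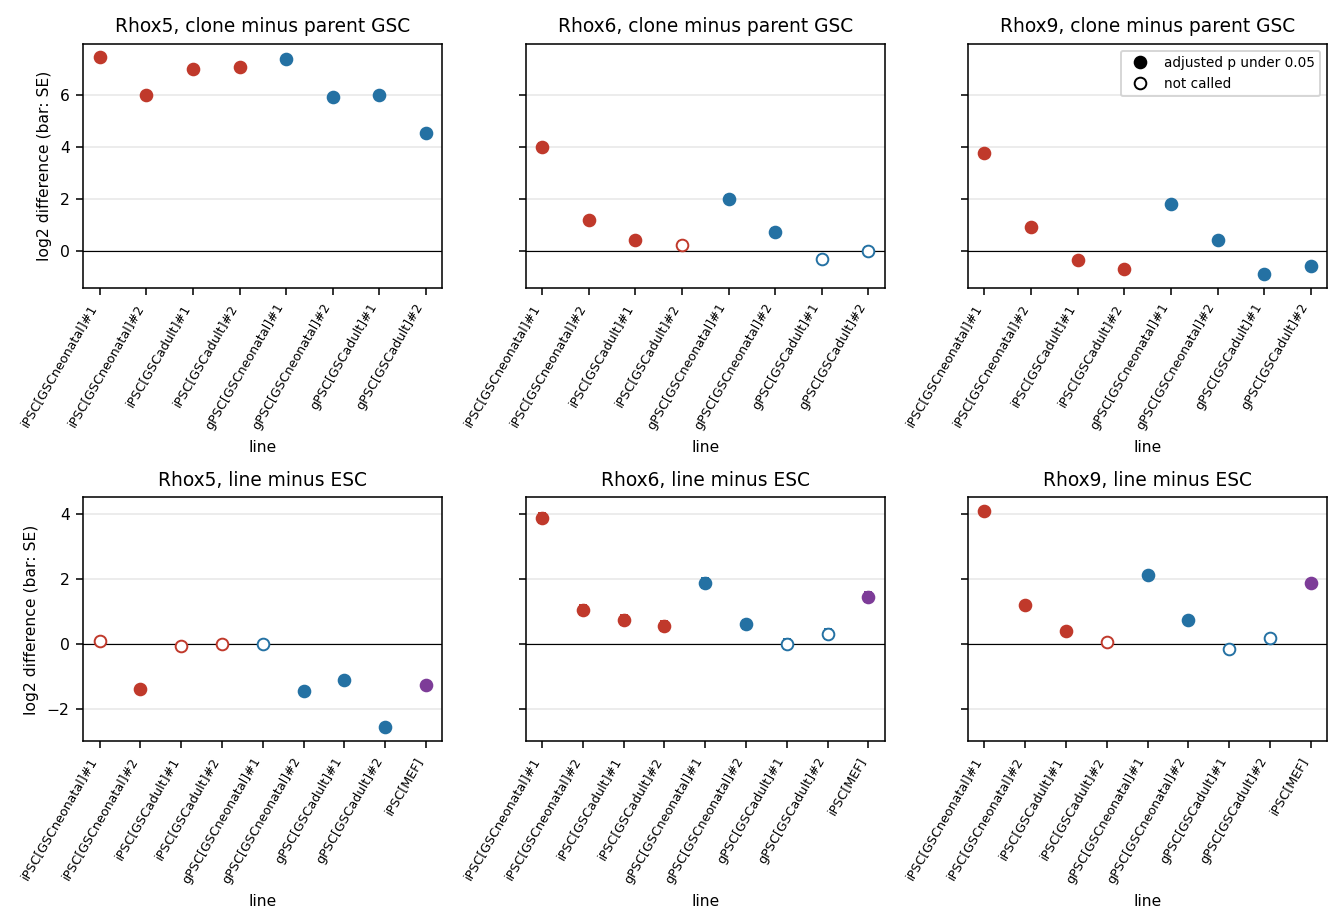
Log2 difference (vertical axis, bars show the SE of the limma fit, often smaller than the point) of Rhox5, Rhox6 and Rhox9 in each of 8 clones against its parent GSC line (top) and in each of 9 lines against ESC (bottom). Filled points passed an adjusted p of 0.05. Rhox9 is above 0 in all 4 neonatal clones and below 0 in all 4 adult clones in the top row, while Rhox5 is between 4.53 and 7.47 in all 8.

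Rhox6 and Rhox9 moved together over the lines and Rhox5 did so less. Over the 13 line means Pearson's r was 0.94 between Rhox6 and Rhox9, and over the 10 pluripotent lines it was 0.98. The corresponding values were 0.49 and 0.36 for Rhox5 with Rhox6, and 0.46 and 0.28 for Rhox5 with Rhox9. These are descriptions over lines that share arrays, normalisation and, in part, their cells of origin, and iPSC[GSCneonatal]#1 stands far from the rest. Rhox6 and Rhox9 are closely related and have 1 probe each, and the probe sequences were not available. Whether these probes also read each other's transcripts was not tested. Over the 8 clones Rhox9 spanned 4.22 log2 units, Rhox6 3.86 and Rhox5 2.64, against a median of 0.76 over all genes. That placed Rhox9 at rank 52, Rhox6 at rank 83 and Rhox5 at rank 328 of 9840 genes by range.

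The most closely correlated pair of lines in the study differed in Rhox9, and in Rhox6 only under some settings. gPSC[GSCneonatal]#2, labelled as of germ cell origin, and iPSC[MEF], labelled as of fibroblast origin, had a correlation of 0.9973 over all genes, the highest of any pair. For scale, the 2 single arrays of a line correlated with each other by 0.9942 to 0.9969. The labelled origins were not tested. limma called 60 of 9840 genes between them (0.61% in either direction, 0.295% higher and 0.315% lower), and 2 of the 3 Rhox genes were among those. Rhox9 was at 6.84 and 6.79 in gPSC[GSCneonatal]#2 and at 8 and 7.88 in iPSC[MEF], 2.18-fold lower in gPSC[GSCneonatal]#2 (log2 difference -1.13 ± 0.09, limma adjusted p = 5.27e-07). Rhox6 was at 4.91 and 5.34 against 5.96 and 5.97 in iPSC[MEF] (-0.84 ± 0.15, limma adjusted p = 0.00592). With the authors' matrix the Rhox6 difference was -1.37 and was not called (limma adjusted p = 0.244). On the low-background arrays alone, with 1 array left of each of these lines, it was -0.63. The Rhox6 call was lost without replicate 1 of gPSC[GSCneonatal]#2 (-0.62, limma adjusted p = 0.189) and without either array of iPSC[MEF] (-0.85 and -0.83, adjusted p = 0.0634 and 0.0733). Rhox5, at 10.63 and 10.80, was not called (adjusted p = 0.692).

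By the similarity of their line means, the 5 genes most like Rhox5 over the 13 lines were Otx2 (Pearson's r 0.985), a homeobox factor of the epiblast, Ptpn6 (0.985), a tyrosine phosphatase, Rpl3l (0.98), a ribosomal protein paralogue, Nanog (0.979), a core pluripotency factor, and Wfdc2 (0.979). For Rhox6 they were Chrnb3 (0.936), a nicotinic receptor subunit, Tmem45b (0.929), Art3 (0.927), Gpat3 (0.921), a glycerol-3-phosphate acyltransferase, and 1300017J02Rik (0.919). For Rhox9 they were St6galnac2 (0.968), a sialyltransferase, Atg13 (0.95), an autophagy factor, AA467197 (0.911), Ap3b1 (0.908), an adaptor complex subunit, and Dgka (0.899), a diacylglycerol kinase. Rhox6 is not among the 5 for Rhox9 because the members were left out of each other's lists. Nanog was not detected on any of the 4 GSC arrays and was at least 117-fold higher in iPSC[GSC] than in GSC (limma adjusted p = 2.03e-16) and at least 84.5-fold higher in gPSC than in GSC (adjusted p = 7.93e-16).

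Of the other Rhox genes on the array, Rhox10, which is known for its role in establishing spermatogonial stem cells, had the opposite pattern to Rhox5. Rhox10 was at 4.24 to 4.96 on the arrays of the 8 clones, at 8.64 and 8.78 in GSC[neonatal] and at 9.22 and 9.26 in GSC[adult]. It was called lower than in the parent in 8 of 8 clones, by -3.83 to -4.89 (36% to 39.5% of genes called lower). Where neither array of the clone was detected the difference was between at least 13.1-fold (gPSC[GSCneonatal]#2) and at least 21-fold (iPSC[GSCadult]#2), and gPSC[GSCneonatal]#1 had 1 array detected. Rhox10 was at 4.83 and 4.60 in ESC and at 4.19 and 4.24 in MEF, all below detection, and at least 16.4-fold higher in GSC than in ESC (limma adjusted p = 5.69e-11).

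Rhox12 was detected on 1 array each of iPSC[GSCadult]#2 and GSC[adult] and its line means ran from 4.45 to 4.73. The probes of Rhox1, Rhox8 and Rhox11 were not above background on any of the 26 arrays, so their levels have only an upper bound here. Within 1 gene cluster, then, the measured genes showed 3 patterns, Rhox5 high in pluripotent lines, Rhox6 and Rhox9 high in a few of them, and Rhox10 high in GSC.

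**Figure D3:**
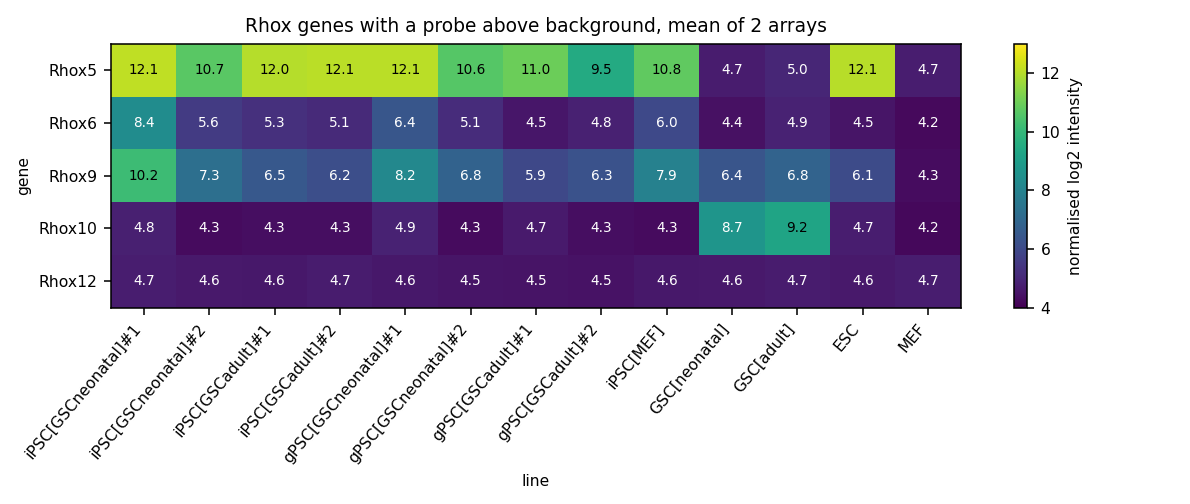
Mean normalised log2 intensity of 2 arrays (colour and printed value) for the 5 Rhox genes with a probe above background (rows) in the 13 lines (columns). Colours are to be read along a row, since different probes do not share a scale. Rhox10 is high only in the GSC columns among these lines (8.7 and 9.2), Rhox5 in the pluripotent columns and Rhox9 most in iPSC[GSCneonatal]#1.

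Of the 20 protein-coding genes nearest to the cluster, 10 on each side, 16 were on the array and 11 were tested. Against GSC, 5 of the 11 were called higher and 2 lower in iPSC[GSC] (22.4% and 25.6% of all genes; median 0.58 against -0.03 over all genes), and 4 higher and 1 lower in gPSC (21.2% and 25.6%; median 0.56 against 0.00). Mcts1, a translation re-initiation factor, was higher by 2.55 ± 0.19 in iPSC[GSC] (limma adjusted p = 1.53e-10), and Nkap by 1.42 ± 0.25 (adjusted p = 6.46e-05). Before the cluster, the nearest tested gene Rnf113a1 was higher by 1.24 ± 0.24 in iPSC[GSC] (adjusted p = 0.000187), whereas Lamp2, a lysosomal membrane protein and the nearest tested gene after it, was lower by -1.01 ± 0.22 (adjusted p = 0.00043). Zbtb33, which lies among the Rhox genes and is not one of the 11, encodes Kaiso, a protein that binds methylated DNA, and was lower by -2.41 ± 0.23 in iPSC[GSC] (limma adjusted p = 5.86e-09) and by -2.16 ± 0.23 in gPSC (adjusted p = 3.71e-08). None of these neighbours came near the differences of 6.90 and 5.97 of Rhox5.

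iPSC[GSCneonatal]#1 had the most neighbours called higher than in ESC, but the other lines did not repeat the Rhox6 and Rhox9 order. In those lines 0 to 3 of 11 were called higher (12.5% to 24.6% of all genes), with medians of -0.26 to -0.08. In iPSC[GSCneonatal]#1 5 of 11 were called higher and 3 lower than in ESC (25.5% and 26.1% of all genes), with a median of 0.10, and in gPSC[GSCneonatal]#1 1 was higher and 3 lower (20.6% and 22.8%), with a median of -0.14. In iPSC[GSCneonatal]#1 Nkrf was lower by -1.06 ± 0.11 and Septin6, not detected in that clone, was at least 1.7-fold lower (limma adjusted p = 1.38e-07). Rhox9 was 4.08 higher there. Nkrf and Septin6 lie farthest before the cluster among the neighbours listed. Nearer to it on the other side, Cul4b was at 10.04 in this clone and 9.65 in ESC, and C1galt1c1 at 6.92 and 6.38.

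Enzymes that set or read DNA methylation also differed between the clones. Dnmt3b, a de novo methyltransferase, was at 10.22 in iPSC[GSCneonatal]#1, 10.43 in iPSC[GSCneonatal]#2 and 10.14 in gPSC[GSCneonatal]#1, the 3 clones with the most Rhox9. It was at 10.97 in iPSC[GSCadult]#2, at 12.06 to 12.90 in the other 4 clones, at 12.75 in iPSC[MEF] and at 11.70 in ESC. Dnmt3b was lower than in ESC by -1.48 ± 0.08 in iPSC[GSCneonatal]#1 (limma adjusted p = 7.69e-12) and by -1.56 ± 0.08 in gPSC[GSCneonatal]#1 (adjusted p = 9.63e-12), but higher by 1.05 ± 0.08 in iPSC[MEF] (adjusted p = 3.14e-09), which had the third highest Rhox9. The part of Dnmt3b in the Rhox9 levels was not tested.

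Dnmt3l, the cofactor of the de novo enzymes, was highest in the 2 clones with the most Rhox9, at 12.72 in iPSC[GSCneonatal]#1 and 12.31 in gPSC[GSCneonatal]#1, against 11.57 in ESC. Over the 8 clones Pearson's r with Rhox9 was 0.86 for Dnmt3l, -0.67 for Dnmt3b, -0.66 for Uhrf1, which recruits the maintenance enzyme, and -0.55 for Dnmt1, the maintenance enzyme itself. For Rhox5 the values were 0.60 for Dnmt3l, -0.53 for Dnmt3b, -0.13 for Uhrf1 and -0.14 for Dnmt1. These are descriptions over 8 clones, and iPSC[GSCneonatal]#1 lies at the edge of them. Dnmt3l was higher in iPSC[GSC] than in GSC by 6.81 ± 0.20 (limma adjusted p = 9.15e-18), a difference close in size to that of Rhox5. Dnmt3a, Tet1 and Tet2 were not among the genes tested.

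Many germline genes that are known to be silenced by promoter methylation in somatic cells were higher in iPSC[GSCneonatal]#1 and gPSC[GSCneonatal]#1. Of 30 such genes listed, 20 were tested, and 14 were called higher and 1 lower in iPSC[GSCneonatal]#1 than in ESC (25.5% and 26.1% of all genes; median 0.65). In gPSC[GSCneonatal]#1 12 were called higher and 1 lower (20.6% and 22.8% of all genes; median 0.53). Dazl, an RNA-binding protein of germ cells, was higher by 3.40 ± 0.12 in iPSC[GSCneonatal]#1 (limma adjusted p = 2.89e-14) and by 2.54 ± 0.12 in gPSC[GSCneonatal]#1 (adjusted p = 4.76e-12). Piwil2, of the piRNA pathway, was higher by 2.08 ± 0.09 and 1.55 ± 0.09 in these clones, and Taf7l, an X-linked germ cell transcription factor subunit, by 3.11 ± 0.14 in iPSC[GSCneonatal]#1 (adjusted p = 4.63e-13).

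In the other 6 clones 0 to 2 of the 20 were called higher than in ESC and 5 to 16 lower (12.5% to 24.6% and 13.6% to 31.1% of all genes). iPSC[MEF], with the third highest Rhox6 and Rhox9, had 1 higher and 13 lower (21.3% and 22.9% of all genes; median -0.47), with Stag3, a cohesin subunit of meiosis, at -2.63 ± 0.11. iPSC[GSCneonatal]#2, with the fourth highest, had 0 higher and 11 lower (12.5% and 13.6% of all genes; median -0.76). The mean level of the 20 genes was 7.45 in iPSC[GSCneonatal]#1 and 6.93 in gPSC[GSCneonatal]#1, 5.33 to 6.35 in the other clones, 5.71 in iPSC[MEF], 9.03 and 9.06 in the GSC lines, and 6.42 in ESC. High Rhox6 and Rhox9 thus came with higher germline genes in 2 lines and without them in 2 others.

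Of 22 X-linked germline genes listed, 13 were tested. In iPSC[GSCneonatal]#1 5 were called higher and 3 lower than in ESC, near the shares of all genes (25.5% and 26.1%). Among them Mageb4 was higher by 2.11 ± 0.14 (limma adjusted p = 9.52e-11), with 1 of 2 ESC arrays detected, and Usp26 was at least 2.08-fold lower (adjusted p = 7.17e-08), not being detected in this clone. In gPSC[GSCneonatal]#1 7 were called higher and 3 lower (20.6% and 22.8% of all genes). Against the parent GSC line 12 or 13 of the 13 were called lower in each of the 8 clones (36% to 39.5% of all genes called lower), as was Rhox10 and unlike Rhox5. All 13 were detected on both arrays of both GSC lines, against 2 to 8 on both arrays of a clone. Genes could thus pass the detection filter through GSC alone, as Rhox10 could. The filter therefore partly fixed this count in advance, and the share over all genes is not a like comparison.

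Between 5 and 10 of the 10 tested markers of trophoblast, the placental lineage in which Rhox6 and Rhox9 are known to be expressed, were called higher than in ESC in 3 of the 4 lines with the most Rhox9, and none in iPSC[MEF]. All 10 trophoblast markers tested were called higher in iPSC[GSCneonatal]#1 than in ESC (25.5% of genes called higher; median 1.18), and all 10 were detected on both arrays. Gata3 was at least 6.55-fold higher, as ESC was not detected (7.64 in iPSC[GSCneonatal]#1 and 4.51 in ESC, limma adjusted p = 4.52e-13), and the simple-epithelium keratin Krt18 was higher by 3.08 ± 0.11 (adjusted p = 2.81e-14). In gPSC[GSCneonatal]#1 7 of 10 were called higher (20.6% of all genes; median 0.43), in iPSC[GSCneonatal]#2 5 of 10 (12.5%; median 0.44), and in iPSC[MEF] 0 of 10 with 3 lower (22.9% of all genes lower; median 0.08). The summed linear level of the 10 markers was 8705 in iPSC[GSCneonatal]#1, 4196 in iPSC[GSCneonatal]#2, 3969 in gPSC[GSCneonatal]#1, 1124 to 2970 in the other clones, 2126 in iPSC[MEF] and 2382 in ESC. The part of trophoblast-like RNA in the Rhox6 and Rhox9 levels was not tested.

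**Figure D4:**
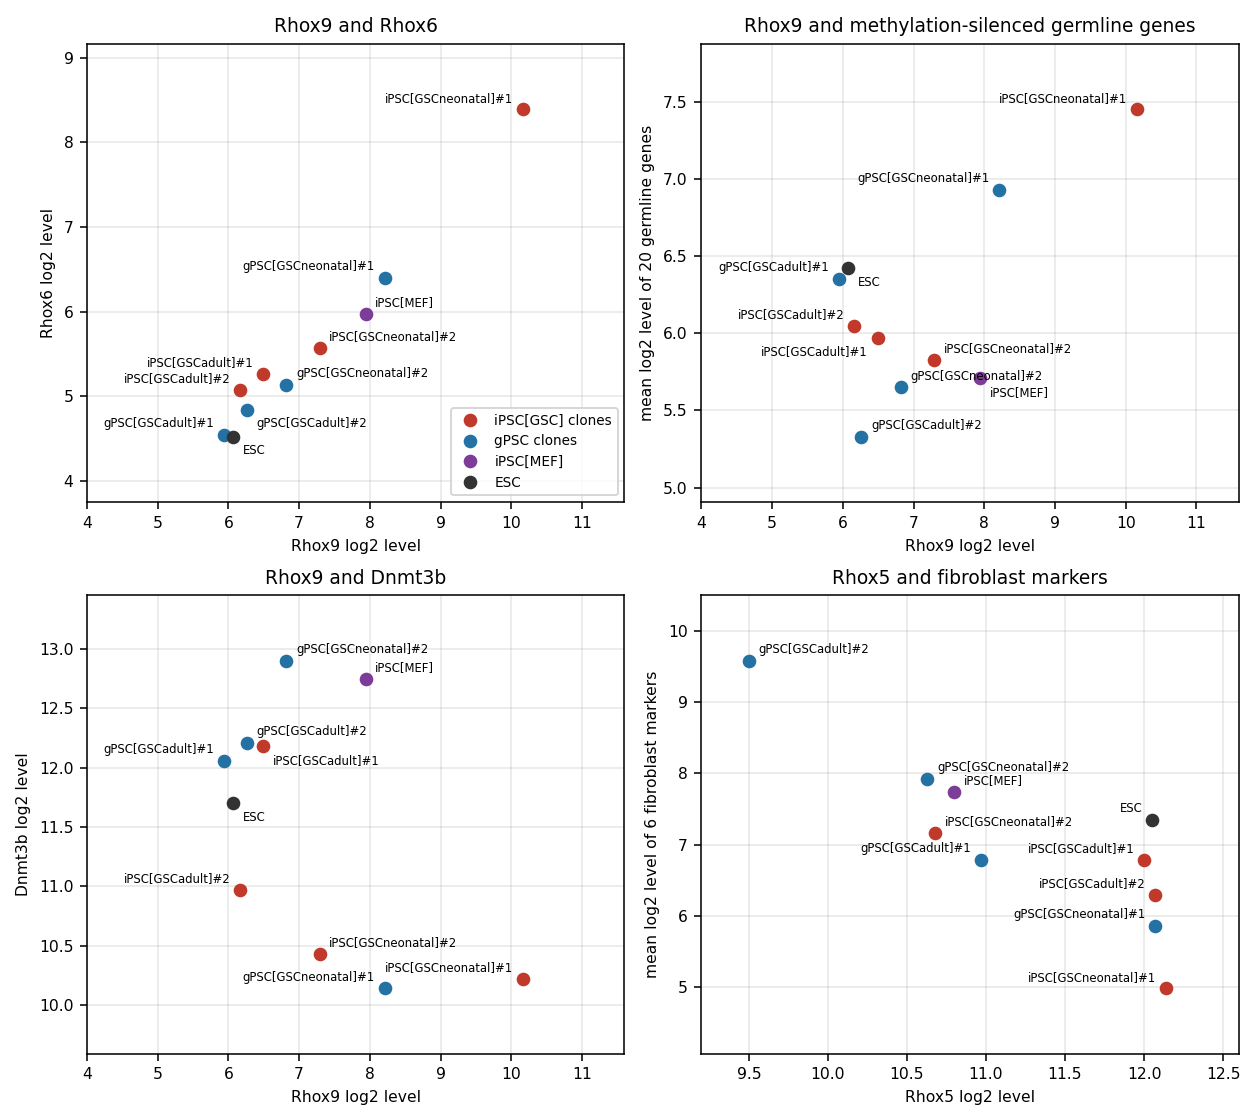
Line means of the 10 pluripotent lines, as normalised log2 intensity on all axes. Rhox9 is set against Rhox6, the mean of 20 methylation-silenced germline genes and Dnmt3b, and Rhox5 against the mean of 6 fibroblast markers. Rhox6 and Rhox9 follow one line (r 0.98), iPSC[MEF] has high Rhox9 with high Dnmt3b (12.75), and gPSC[GSCadult]#2 has the lowest Rhox5 (9.50) and the highest fibroblast mean (9.58).

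Few regulators and targets of Rhox5 were measured. Of 7 listed, 3 were tested, the promoter-binding factors Sp1 and Gabpa and the netrin receptor Unc5c, a known target that Rhox5 represses in Sertoli cells. None of the 3 was called in iPSC[GSC] against GSC (22.4% of genes called higher and 25.6% lower) or in gPSC against GSC (21.2% and 25.6%). Against ESC, Sp1 was higher by 0.70 ± 0.15 in iPSC[GSCneonatal]#1 (limma adjusted p = 0.000663) and by 0.67 ± 0.15 in gPSC[GSCneonatal]#1 (adjusted p = 0.00133), while Rhox5 there equalled ESC within 0.09. In gPSC[GSCadult]#2, with the lowest Rhox5, Gabpa was lower than in ESC by -0.55 ± 0.09 (limma adjusted p = 1.75e-05). Unc5c was near background in both, at 5 in gPSC[GSCadult]#2 with 1 of 2 arrays detected and 4.32 in ESC with none, at least 1.05-fold higher (limma adjusted p = 1.29e-05). It was at 6.44 in MEF, and gPSC[GSCadult]#2 was also the clone with the highest fibroblast marker sum, whose part in Unc5c was not tested.

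Markers of the supporting cells of the testis, in which Rhox5 is known to act, were few. Of the 4 testis somatic markers tested, 1 or 2 were detected on both arrays of any line. Their summed linear level was 195 to 536.5 in the 8 clones, 543 in GSC[neonatal], 684.4 in GSC[adult] and 276.5 in ESC. In iPSC[GSC] against GSC 1 of the 4 was called higher and 2 lower (22.4% and 25.6% of all genes; median -0.07 against -0.03 over all genes). Clu was higher by 1.86 ± 0.31 (limma adjusted p = 2.88e-05), and Wt1 was lower by -4.07 ± 0.34 (adjusted p = 1.06e-09).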

How the data were processed

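Total RNA of 13 mouse lines was hybridised as biotin-labelled cRNA to Illumina MouseRef-8 bead arrays, 2 per line and 26 in all. The deposited table holds, per the file headers, an intensity with its detection p-value at each of 25697 probes. The authors also deposited a matrix of log2 values, for which the submitters' processing notes name BeadStudio 3.2, RMA and lumi, and it served as an alternative. Intensities were background-corrected and quantile-normalised with neqc (offset 16) in limma 3.58.1 (R 4.3.3, statmod 1.5.0). The filter required detection (p under 0.01) on 2 or more arrays, which left 14517 probes, and the brightest kept probe stood for a gene (9840 genes).

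limma was fitted to the 13 lines, to 9 cell types with a random line effect (duplicateCorrelation), and to the means of the 8 clones, with Benjamini-Hochberg adjustment over all genes and a threshold of 0.05. Single values were compared by exact permutation of clones. Where a group was undetected on every array, folds are lower bounds for these background-corrected levels only. The number of arrays limits the precision. The scripts were tested on simulated data.

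The Rhox genes and all gene lists were chosen with earlier results of these data known. Genes named are the Rhox genes with a probe, the 5 genes most correlated with each member over the line means, up to 4 called genes with the largest difference per list and comparison, the nearest tested neighbours of the cluster, and the methylation enzymes Dnmt1, Dnmt3a, Dnmt3b, Dnmt3l, Uhrf1, Tet1 and Tet2 where tested. Mcts1, Nkap, Nkrf and Septin6 come under the list of neighbours. Alternatives were no background correction, the authors' matrix, no filter, the mean of a gene's probes, the replicate number or the array set as a block, the low-background arrays alone, and leaving out each array, replicate number or clone. The array set, the low-background arrays and the omission of single arrays were chosen after seeing the data.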

Additional observations from a re-analysis of the deposited data

Results flagged for a closer look

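Among the 4 iPSC[GSC] clones, Rhox5 in iPSC[GSCneonatal]#2 was at 10.68 and stood apart from the other 3, with a gap of 0.908 of the group's range, above the 95% critical value of Dixon's test. Rhox6 in iPSC[GSCneonatal]#1 was at 8.39 and stood apart among the same 4 clones (gap 0.852 of the range) and among the 10 pluripotent lines (gap 0.514 of the range). In all, 18 groups were examined in this way, and chance flags about 1 in 20.

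The change from the parent GSC line differed between neonatal and adult clones by 1.91 for Rhox6 and by 2.37 for Rhox9, with no overlap between the 4 clones of each origin (two-sided exact permutation p = 0.0286 each, 0.0429 adjusted over 3 genes). Each origin is represented by 1 GSC line, whose level was subtracted from all 4 of its clones. Without that subtraction the Rhox6 levels of the clones overlapped between origins. The exact permutation test on levels gave 0.171 for Rhox6 and 0.171 for Rhox9 after its own adjustment over 6 tests. Tests of change and of levels use the same split of the same clones.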

How the results depend on the processing

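The Rhox5 differences from GSC and MEF kept their direction under every alternative run, and their call wherever a test could be made. Their size depended on the scaling. Rhox5 in GSC[neonatal] was at 4.67 in the main run, 6.61 without background correction and 2.84 with the authors' matrix. Without background correction Rhox9 in GSC against MEF was 0.93, and with the authors' matrix Rhox6 in iPSC[MEF] against MEF was 4.11 and called. On the low-background arrays Rhox6 in iPSC[GSC] against GSC was 1.28, and there and with the array set as a block 1 clone had Rhox6 called lower than its parent. Leaving out arrays or clones gave ranges of 0.74 to 2.16 (Rhox6) and 0.19 to 1.62 (Rhox9) in iPSC[GSC] against GSC, -0.16 to 0.53 (Rhox9, gPSC against GSC), -0.69 to 0.04 (Rhox5), 0.85 to 2.26 (Rhox6) and 0.73 to 2.17 (Rhox9) in iPSC[GSC] against ESC, -1.63 to -0.89 (Rhox5, gPSC against ESC), -0.11 to 0.33 (Rhox6, GSC against ESC), 2.31 to 2.33 (Rhox9, GSC against MEF), 1.69 to 1.78 (Rhox6) and 3.52 to 3.76 (Rhox9) in iPSC[MEF] against MEF, 1.65 to 3.08 (Rhox9 change from parent, neonatal against adult), -0.61 to 0.12 (Rhox5, adult against neonatal), -2.15 to 0.68 (Rhox6) and -2.42 to 0.45 (Rhox9) for route by origin, and 0 to 1 clones with Rhox6 called lower than the parent. The cause was not tested.

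Small uncalled differences turned sign. Rhox6 in gPSC[GSCadult]#1 against ESC was 0 without background correction and -0.02 with the authors' matrix, and leaving out arrays gave -0.21 to 0.25. Rhox6 in gPSC[GSCadult]#2 against its parent was 0.02 with the authors' matrix and -0.29 to 0.25 when arrays were left out, and in iPSC[GSCadult]#2 it was -0.06 on the low-background arrays and -0.13 to 0.57. Rhox5 against ESC in iPSC[GSCadult]#2 was 0 with the array set as a block, -0.01 on the low-background arrays and -0.03 to 0.07 when arrays were left out, and in gPSC[GSCneonatal]#1 it was -0.05 and -0.05 to 0.08. Rhox9 in iPSC[GSCadult]#2 against ESC was -0.09 to 0.25. The fit of lines on 1 replicate number has no residual degrees of freedom, so those values carry no test.

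Among the 8 lines whose replicate 1 lay in the higher-background set and replicate 2 in the lowest, same-numbered deviations correlated by 0.083 to 0.41, above 0.1 in 27 of 28 pairs of lines, and over the other 50 pairs by -0.19 to 0.12, above 0.1 in 1. There the replicate number and the array set coincide, so the set as a block carries that pairing. With the replicate block 4703 genes were called in iPSC[GSC] against GSC (4721 without it), and no Rhox call changed. Signal near background limits Rhox6, which was detected on 15 of 26 arrays. The chip as a block was not run, as the headers name no chips.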
